A study of Mus musculus with 2 samples.

Results

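The 9 genes described here encode the enzymes, receptors and classical targets of glucocorticoid and mineralocorticoid signalling. They are Hsd11b1, Hsd11b2, Nr3c1, Nr3c2, Fkbp5, Tsc22d3, Sgk1, Zbtb16 and Klf9. They were taken by name, and their probes were found on the array by the transcript accession that each spot carries. This gave 10 probes of 39426, and the 9 genes are part of 20017 named genes. Nr3c1 had 2 probes and each of the other 8 genes had 1.

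RNA came from dissected glomerular regions of the kidneys of male mice on a C57BL/6J background. At 8 weeks of age the mice received streptozotocin (STZ), which is toxic to the beta cells of the pancreas and is used to bring on diabetes, in 100 mmol/l citrate buffer, and they were killed at 32 weeks. In WT+STZ the mice were wild type. In TG+STZ they were labelled Sirt1-overexpressing transgenic, Sirt1 being a protein deacetylase. With 1 array for each group there are no replicates, and differences between the groups could not be tested. Both groups had STZ, so the comparison is between genotypes after the same treatment, and blood glucose was not analysed here. The title of the series speaks of Sirt1 in the renal tubule. The promoter that drives the transgene, the number of mice behind each array and the hour at which the mice were killed are not given in the sources used here. Sirt1 itself gave 2625 units in WT+STZ and 2977 units in TG+STZ, a scaled difference of 0.10 ± 0.20 on the log2 scale.

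Corticosterone, the main glucocorticoid of mice, binds both the glucocorticoid receptor and the mineralocorticoid receptor. The same hormone therefore has to be activated in some cells and removed in others. The enzyme encoded by Hsd11b1 regenerates active hormone from its inert keto form, and the enzyme encoded by Hsd11b2 inactivates it in the aldosterone-sensitive cells of the distal nephron, where it keeps the mineralocorticoid receptor free for aldosterone. In the collecting duct the occupied mineralocorticoid receptor raises sodium uptake through the epithelial sodium channel, partly through the kinase encoded by Sgk1.

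Both receptors recognise the same palindromic DNA element. RefSeq windows on GRCm38.p6, from 250 bases before to 50 bases after a gene's start, were matched for 6 of the 9 genes and gave 13 windows. They were searched on both strands for the full element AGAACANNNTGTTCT, its arm AGAACA, the C/EBP-type motif TTGCNNAA, the E-box CACGTG and the D-box TTATGTAA. The full element was found in 1 of these windows, a start of Sgk1, and in 3 of all 32851 windows (0.0091%). Windows on 1 chromosome, and those of another length, were left out of both sets before the search. A member without a window here may therefore still have one in RefSeq. The arm stood in 4 of the 13 windows against 19.0% of all windows, the C/EBP-type motif in 2 against 10.8%, the E-box in 2 against 7.15% and the D-box in 0 against 0.938%. Sgk1 alone gave 6 of the 13 windows, and those with an arm belonged only to Sgk1 and Tsc22d3. The window of Sgk1 is shown because it holds the full element, and those of Hsd11b1 and Fkbp5 because these genes had the largest differences between the arrays. Each is written 5′ to 3′ along the gene's strand, and capitals mark the motifs.
Sgk1, chr10:21993640-21993939, plus strand: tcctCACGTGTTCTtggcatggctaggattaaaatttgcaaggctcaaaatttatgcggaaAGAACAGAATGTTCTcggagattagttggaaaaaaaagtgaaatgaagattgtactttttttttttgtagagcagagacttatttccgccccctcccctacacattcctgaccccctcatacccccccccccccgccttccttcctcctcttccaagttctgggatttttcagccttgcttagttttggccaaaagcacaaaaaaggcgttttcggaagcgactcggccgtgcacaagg
Hsd11b1, chr1:193242311-193242610, minus strand: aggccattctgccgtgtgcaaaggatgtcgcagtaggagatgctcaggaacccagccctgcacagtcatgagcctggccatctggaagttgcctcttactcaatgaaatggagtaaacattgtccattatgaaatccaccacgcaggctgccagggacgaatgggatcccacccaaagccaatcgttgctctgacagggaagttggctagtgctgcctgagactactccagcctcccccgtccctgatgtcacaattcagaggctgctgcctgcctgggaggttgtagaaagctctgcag
Fkbp5, chr17:28486100-28486399, minus strand: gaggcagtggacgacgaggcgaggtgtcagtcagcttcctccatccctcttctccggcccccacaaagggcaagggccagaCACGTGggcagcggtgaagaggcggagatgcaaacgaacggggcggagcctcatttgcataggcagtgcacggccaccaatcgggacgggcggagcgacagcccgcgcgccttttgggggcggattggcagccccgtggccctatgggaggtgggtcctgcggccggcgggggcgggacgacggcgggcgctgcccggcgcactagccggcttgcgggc
In the Sgk1 window the element reads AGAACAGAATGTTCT and begins 189 bases before the start, and near the window's far end an E-box overlaps a further arm. This is 1 of 6 Sgk1 starts in the table, and which of them the kidney uses was not measured. The Hsd11b1 window holds none of the 5 motifs in these exact letters. The Fkbp5 window holds 1 E-box, 169 bases before the start. A match describes these letters in this window and says nothing about binding.

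All 10 probes were well above background on both arrays, and none was saturated. Each difference is a log2 value, TG+STZ minus WT+STZ, after each array was scaled to the 75th percentile of its gene probes. Its error is that of the scanner software for both spots, about 0.20 for a single bright probe, and it covers neither the spread between mice nor that between dissections. Of the 9 genes, 5 were higher and 4 lower in TG+STZ, against 50.9% and 49.1% of all 15975 genes measured on both arrays. Their median difference was 0.10, against 0.00 for all genes. At a threshold of 1.5-fold, 2 of the 10 probes were higher in TG+STZ, where 2.01% of all probes were, and 0 were lower, where 2.18% were. The 2 were those of Hsd11b1 and Fkbp5. The members were chosen with earlier results of these data known, so these counts are a description.

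**Figure D1:**
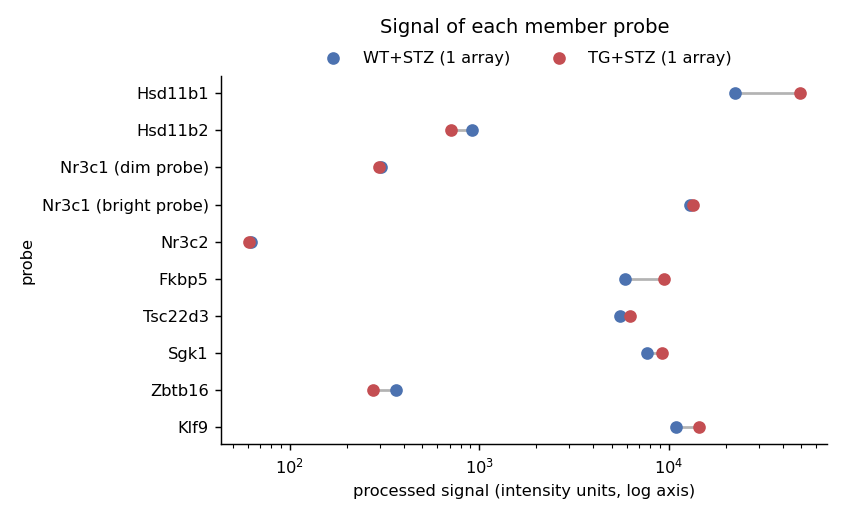
Processed signal of each of the 10 probes in intensity units on a log axis, with 1 point for the WT+STZ array and 1 for the TG+STZ array joined by a line. Hsd11b1 has the widest gap, from 22519 to 49368 units, and the points of Nr3c1 and Nr3c2 nearly coincide.

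The activating enzyme stood furthest apart. The Hsd11b1 probe read 22519 units in WT+STZ and 49368 units in TG+STZ. The signal was 2.08-fold higher in TG+STZ after scaling, a log2 difference of 1.05 ± 0.20. In mixed tissue, more cells of a type and more RNA per cell cannot be told apart. Of all genes measured on both arrays, 0.482% had a higher difference, and 0.769% of all probes were at least 2-fold higher.

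The array carried this probe at 10 places, which gives the spread of the hybridisation though not of the animals. Across the 10 spots the signal ran from 19962 to 23782 units in WT+STZ, with a median of 22435. In TG+STZ it ran from 42518 to 51779, with a median of 49025. No spot of one array reached the range of the other, and the difference per spot lay between 1.01 and 1.07. The software marked 1 spot of the TG+STZ array as an outlier, the dimmest of the 10, and that place was left out on both arrays.

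**Figure D2:**
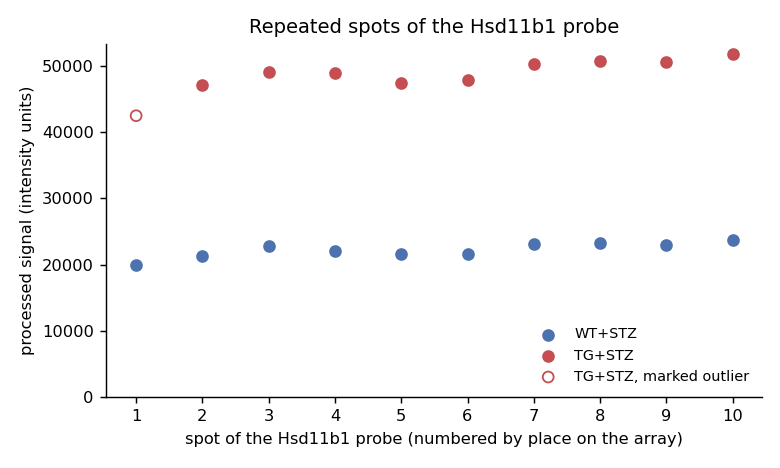
Processed signal in intensity units of the 10 spots that carry the Hsd11b1 probe, by spot, on the WT+STZ array and the TG+STZ array. The open circle is the spot marked as an outlier, and the 2 arrays are separated at every spot.

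The inactivating enzyme lay on the other side of 0. The Hsd11b2 probe read 919 units in WT+STZ and 714 units in TG+STZ. That is 1.36-fold lower in TG+STZ, a log2 difference of -0.44 ± 0.20, and 3.49% of genes had a lower difference. The gap between the differences of Hsd11b1 and Hsd11b2 was 1.496 ± 0.29 on the log2 scale, or 2.82-fold. A common scaling factor between the arrays cancels in this gap, so settings that only shift an array could not change it. Under normexp background correction, quantile normalization, loess and with outlier spots kept, the gap lay between 1.44 and 1.54.

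Hexose-6-phosphate dehydrogenase, the H6pd product, supplies the cofactor that drives the Hsd11b1 enzyme in the reducing direction. H6pd read 16138 units in WT+STZ and 19741 units in TG+STZ, a log2 difference of 0.21 ± 0.20. Its difference was smaller than that of Hsd11b1 by 0.84 ± 0.29. H6pd belongs to a list of 11 corticosteroid handling genes, of which 10 were measured on both arrays. Of these, 9 were higher in TG+STZ and 1 was lower, against 50.9% and 49.1% of all genes, with a median of 0.18. Several of the 9 lay within their scanner error. Of the 10, 1 was at least 1.5-fold higher, against 1.75% of all genes.

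The exception in size was Srd5a2, which encodes a steroid reductase of androgen and corticosteroid metabolism. It read 470.3 units in WT+STZ and 1358 units in TG+STZ, a log2 difference of 1.45 ± 0.20. Ugt2b37, of the glucuronosyltransferase family whose members can share probes, stood at 0.41 and Srd5a1, a second steroid reductase, at 0.34. Akr1d1, which reduces the ring of steroid hormones for clearance, was the gene on the other side, at -0.26. Akr1d1 and Serpina6 were named after their values were seen. Serpina6, the gene of the corticosteroid carrier of plasma, was not well above background in WT+STZ and barely so in TG+STZ, at 9.65 and 13.3 units.

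The 2 hormone receptors differed little between the arrays. Nr3c1, the gene of the glucocorticoid receptor, had a dim probe that read 302 units in WT+STZ and 296 units in TG+STZ and a bright probe that read 13002 and 13516. Their differences were -0.11 ± 0.20 and -0.02 ± 0.20, and the gene's mean was -0.07 ± 0.14. Nr3c2, the gene of the mineralocorticoid receptor, read 62.8 units in WT+STZ and 60.9 units in TG+STZ. It was the dimmest of the 10 probes, and its difference was -0.12 ± 0.22. All 3 receptor probes lay within the scanner error of 0.

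The proteins that hold these receptors in their hormone-binding state, and the coregulators they recruit, also lay near 0. Of 18 such genes, 13 were lower in TG+STZ and 5 higher, and the median was -0.04. None was past 1.5-fold, where only 1.75% of all genes were higher and 1.91% lower. Hsp90aa1, a heat shock protein of the receptor complex, stood at -0.05 ± 0.20. Fkbp4, the co-chaperone that Fkbp5 competes with, stood at -0.10 ± 0.20. The genes furthest from 0 were the co-chaperone genes Dnajb1 at 0.38, Stip1 at -0.20 and Ptges3 at -0.13.

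**Figure D3:**
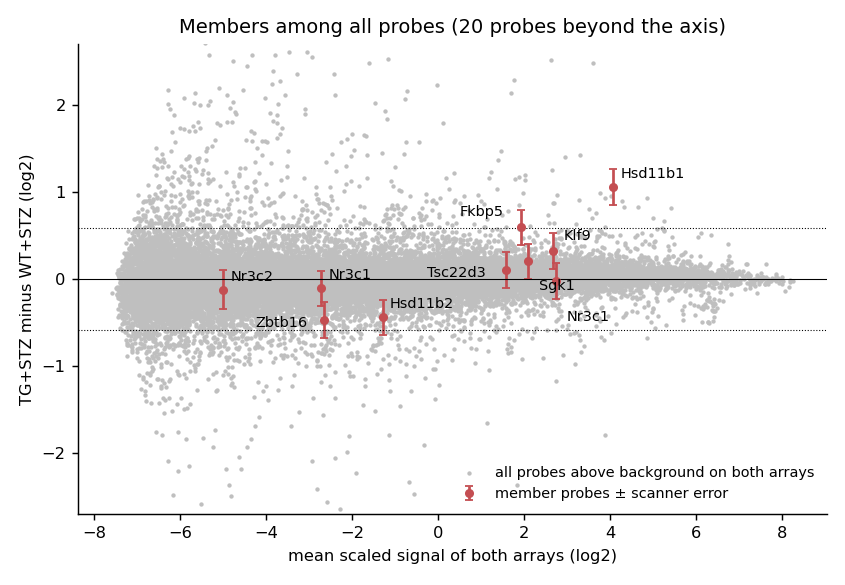
Log2 difference between the arrays against mean scaled signal for all 28998 probes above background on both arrays (grey) and for the 10 member probes with their scanner error (red); dotted lines mark 1.5-fold. Hsd11b1 lies apart from the bulk among bright probes, Fkbp5 lies at the upper line, and 20 grey probes fall beyond the axis.

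The 5 target genes did not share a direction. Fkbp5, which encodes a co-chaperone that lowers the receptor's affinity for hormone, read 5921 units in WT+STZ and 9431 units in TG+STZ. It was 1.51-fold higher in TG+STZ, a log2 difference of 0.59 ± 0.20, and 1.70% of genes had a higher difference. The 1.5-fold threshold lies at 0.58, so Fkbp5 is just inside it. It fell short of the threshold under normexp background correction at 0.55, under quantile normalization and loess at 0.56 each and with the percentile of detected probes at 0.57. The count of probes at least 1.5-fold higher was then 1. The next member below the threshold was Klf9.

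Klf9 encodes a transcription factor that responds both to glucocorticoids and to the circadian clock. It read 10976 units in WT+STZ and 14490.2 units in TG+STZ, a log2 difference of 0.32 ± 0.20. Sgk1, the kinase that protects the sodium channel from removal, read 7654 and 9288 units. Its difference of 0.20 ± 0.20 was no larger than the scanner error. Tsc22d3, which encodes the anti-inflammatory protein GILZ, read 5542 and 6287 units and stood at 0.10 ± 0.20. Sgk1 and Tsc22d3 thus cannot be separated from 0 even by the error of the scanner.

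Zbtb16, which encodes the zinc finger repressor PLZF, was lower in TG+STZ. It read 363 units in WT+STZ and 275 units in TG+STZ, which is 1.39-fold lower, a log2 difference of -0.48 ± 0.20. Among all genes, 2.97% had a lower difference. Fkbp5 and Zbtb16, both known as strongly glucocorticoid-induced genes in other tissues, therefore stood on opposite sides of 0, each by more than 2 scanner errors. In all, 4 of the 9 genes lay beyond 2 scanner errors, and they were Hsd11b1, Fkbp5, Zbtb16 and Hsd11b2.

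Relatives of the members lay close to 0. Of 18 genes from the same families, 8 were higher and 10 lower in TG+STZ. Their median was -0.01, which other scalings put between -0.04 and 0.02. None was at 1.5-fold, where only 1.75% of all genes were higher and 1.91% lower. Hsd17b11, a short-chain dehydrogenase gene like Hsd11b1, was the furthest at 0.56, from 21884 units in WT+STZ to 33959 in TG+STZ. It was followed by Pgr, the progesterone receptor gene, at 0.29 ± 0.28 from a dim probe (-0.15 under normexp), and by Tsc22d1, a relative of Tsc22d3, at -0.17. The kinase genes Sgk2 and Sgk3 stood at -0.16 and 0.04. Klf15, a further Krüppel-like factor known to be induced by glucocorticoids, stood at 0.08. Klf15, Sgk2 and Sgk3 were named after their values were seen.

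A wider list of genes known to be induced by glucocorticoids held 28 genes, of which 26 were measured on both arrays. Of these, 19 were higher in TG+STZ and 7 lower, with a median of 0.16, and 4 were at least 1.5-fold higher against 1.75% of all genes. The list was drawn up with earlier results of these data known, so its count is a description. Fat cell and fibroblast markers were higher in TG+STZ as well, with medians of 0.87 and 0.47, or 0.43 and 0.18 under normexp background correction, and their part in the values of this list was not tested. Angptl4, an inhibitor of lipoprotein lipase, read 9422 units in WT+STZ and 19479 units in TG+STZ, a log2 difference of 0.97 ± 0.20. Cebpd, a C/EBP transcription factor gene, read 2618 and 5387 units and stood at 0.96 ± 0.20. Dusp1, a phosphatase gene that restrains stress kinases, read 1438 and 2891 units and stood at 0.93 ± 0.20.

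The fourth gene past 1.5-fold was Pdk4, a brake on glucose oxidation, at 0.71 ± 0.20, named after its value was seen. Per1, a clock gene with a direct glucocorticoid response, stood at 0.21 ± 0.20. On the other side Fam107a stood at -0.38 ± 0.14 over 2 probes. Il1r2 was above background in TG+STZ alone, at 7.16 and 12.1 units, and Cd163 on neither array. These 3 genes were also named after their values were seen.

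**Figure D4:**
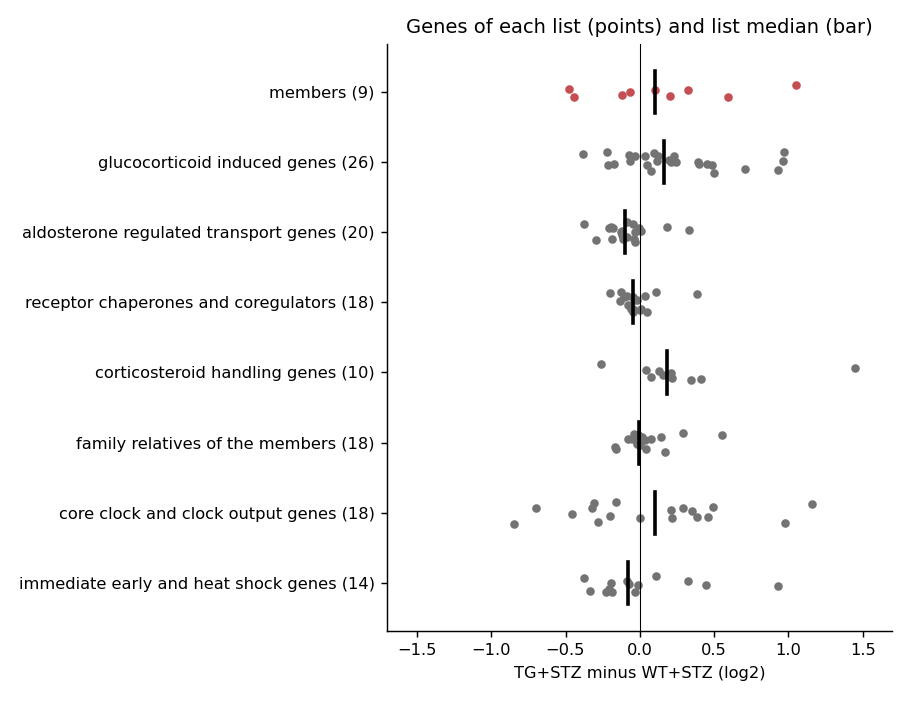
Log2 difference between the arrays for the measured genes of each list (points, with the number of genes in brackets) and the list median (bar). Medians run from -0.10 for aldosterone regulated transport genes to 0.18 for corticosteroid handling genes, and the 9 members (red) straddle 0.

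Genes of aldosterone-regulated transport leaned the other way. Of 21 listed genes 20 were matched, and 17 of them were lower in TG+STZ and 3 higher, with a median of -0.10. None was at 1.5-fold, where only 1.75% of all genes were higher and 1.91% lower. Most of the 20 differences lay within their scanner error. The 3 subunits of the epithelial sodium channel were all lower. Scnn1a read 11416 units in WT+STZ and 10597 units in TG+STZ, a difference of -0.19 ± 0.20. Scnn1b read 2045 and 1666 units and stood at -0.37 ± 0.20, and Scnn1g read 171 and 147 units and stood at -0.30 ± 0.21. Usp2, a deubiquitinase gene that also follows the clock, was the furthest on the other side, at 0.33.

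Hsd11b2, Scnn1b and Scnn1g are made in the same cells of the distal nephron, and most markers of those cells were lower too. Of 12 principal cell markers of the collecting duct, 8 were lower and 4 higher, with a median of -0.15, and the water channel gene Aqp2 stood at -0.43 ± 0.20. Their summed signal, in units of each array's 75th percentile, was 49.9 in WT+STZ and 47.7 in TG+STZ. All 12 were above background on both arrays, and Aqp3 and Aqp4 stood at -0.16 and 0.36. Scnn1b and Scnn1g are themselves among these 12, so they are counted both here and in the aldosterone list. All 10 markers of the distal convoluted and connecting tubule were lower, with a median of -0.18 and summed signals of 185.5 and 180.1. Several lay within their scanner error, and the marker nearest 0, at -0.0044, ran from -0.04 to 0.02 across scalings. This list also overlaps the aldosterone list. The part of these cells in the value of Hsd11b2 was not tested.

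Hsd11b1 is made in proximal tubule, in fat and in fibroblasts, and the marker lists of these cells differed from one another. Of 12 proximal tubule markers, 4 were higher and 8 lower, with a median of -0.02 (-0.05 to 0.01 across scalings) and summed signals of 888.9 in WT+STZ and 910.3 in TG+STZ. Slc34a1, Lrp2 and Cubn stood at -0.02, -0.03 and -0.04. The 4 higher were Acsm3 at 0.57 ± 0.14, Slc22a6 at 0.265, Slc5a12 at 0.25 and Slc7a13 at 0.20. These 4 were named after their values were seen. Among 12 fibroblast markers 9 were higher. Their median was 0.47, or 0.18 under normexp, with summed signals of 17.3 and 20.3, and Clec3b, Dpt and Mfap5 stood at 1.096, 0.59 and 0.56. Under normexp these 3 stood at 0.17, 0.12 and 0.42, none past 1.5-fold. Of 12 fat cell markers 8 were measured on both arrays, and all 8 were higher. Their median was 0.87, or 0.43 under normexp, with summed signals over the whole list of 11.7 and 14.9.

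The fat cell hormone gene Adipoq was well above background in TG+STZ alone, at 7.07 and 155.8 units, which is at least 13.9-fold higher against the lowest signal well above background in WT+STZ. Cfd stood at 4.82 ± 0.22 and Plin1 was above background in TG+STZ alone, as was Ucp1, while Lep was above it on neither array. Ucp1 and Lep were named after their values were seen. The part of fat cells and fibroblasts in the value of Hsd11b1 was not tested. The adrenal cortex, which lies beside the kidney and makes the hormones, was represented by 12 genes. Its defining genes Cyp11b1, Cyp11b2 and Cyp11a1 were at 2.03 to 4.53 units and above background on neither array. Mc2r was above background in TG+STZ alone, at 11.5 and 15.4 units. The list had 6 genes above background on both arrays, of which 3 were higher and 3 lower. Mrap, an accessory protein gene of the melanocortin receptors, was the one past 1.5-fold, at 1.26 ± 0.25 from a dim probe (0.32 under normexp). Cyp21a1, Akr1b7 and Nr5a1 stood at -0.21, -0.04 and -0.07, Scarb1 at 0.01 and Star at 0.11 (-0.15 under normexp). Over the whole list the summed signal was 0.838 in WT+STZ and 0.839 in TG+STZ. The adrenal genes beyond the defining ones were named after their values were seen.

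White blood cell markers were lower as well, and innate-like lymphocytes also express Zbtb16. All 11 matched markers were lower in TG+STZ, with a median of -0.44 and summed signals of 1.90 in WT+STZ and 1.56 in TG+STZ. The marker nearest 0, at -0.03, ran from -0.18 to 0.03 across scalings. Of the 11, 4 were at least 1.5-fold lower, against 1.91% of all genes. Ptprc, Cd3e and Cd8a stood at -0.27, -0.12 and -0.66. Under normexp not all of the 4 stayed past 1.5-fold, and Cd8a stood at -0.39. The part of white blood cells in the value of Zbtb16 was not tested.

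Markers of the glomerulus showed what the dissected RNA held. All 12 podocyte markers were above background on both arrays, with 6 higher and 6 lower in TG+STZ, a median of 0.00 (-0.12 to 0.03 across scalings) and summed signals of 14.5 and 12.3. Nphs1 and Podxl stood at -0.89 and -0.19. Endothelial markers had a median of -0.11 (11 of 12 lower), with Pecam1, Kdr and Ehd3 at -0.12, -0.08 and 0.00, and mesangial and smooth muscle markers one of -0.15 (10 of 12 lower), with Acta2, Myh11 and Tagln at -0.35, -0.27 and -0.11. Of the markers of the loop of Henle 7 of 10 were lower, with a median of -0.11, and Umod, Slc12a1 and Cldn16 stood at 0.05, -0.15 and -0.07. The summed signal of the proximal tubule list was the highest of the cell type lists on both arrays, so the 9 genes were read in RNA that held much tubule RNA.

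**Figure D5:**
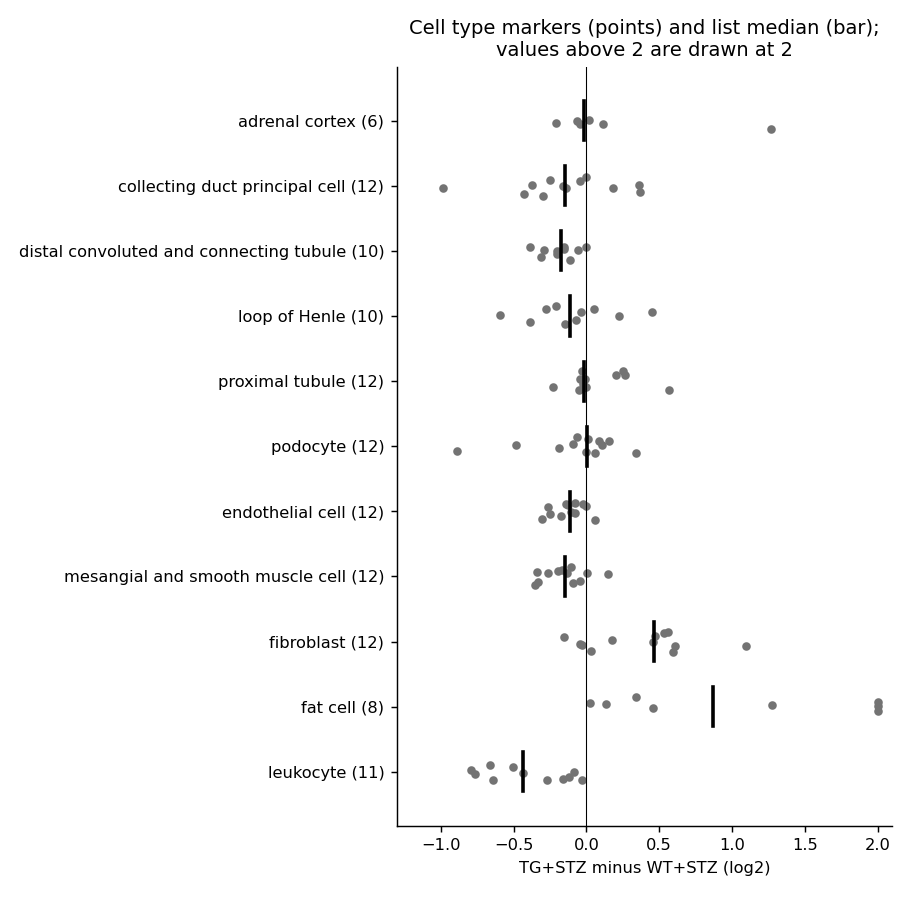
Log2 difference between the arrays for the measured markers of each cell type (points, number in brackets) and the list median (bar), with values above 2 drawn at 2. Fat cell and fibroblast markers lie to the right with medians of 0.87 and 0.47, and leukocyte markers to the left with -0.44. Proximal tubule and podocyte markers lie on both sides of 0, with medians near it.

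Klf9, Per1 and Usp2 also follow the time of day, and clock genes differed between the arrays. Of 18 clock and clock output genes, 10 were higher and 8 lower in TG+STZ, with 2 past 1.5-fold in each direction against 1.75% and 1.91% of all genes. Their median was 0.11, or 0.00 under normexp. The furthest were Dbp, a clock output factor, at 1.16 ± 0.14, Ciart at 0.98 ± 0.27 and Cry1 at -0.85 ± 0.28. Under normexp Ciart stood at 0.11 and Cry1 at -0.54, neither past 1.5-fold. Arntl, the other gene past 1.5-fold lower, stood at -0.70 and was named after its value was seen. Across scalings Dbp ran from 1.13 to 1.18 and Arntl from -0.72 to -0.62, both still past 1.5-fold. Genes induced within minutes of stress or handling gave no common direction. Of 14 matched, 4 were higher and 10 lower, with a median of -0.08. Dusp1, which is in this list too, stood at 0.93, Hspa1a at 0.44 and Atf3 at -0.38. Whether time of day or handling contributed to the values of Klf9, Per1 or Dusp1 was not tested.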

How the data were processed

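RNA labelled with Cy3 was hybridised in 1 colour to an Agilent mouse array, 1 array for each of the 2 groups. Per the file headers, the authors' spot intensity came from Agilent Feature Extraction 10.7.1.1 with background subtracted. Version 10.3.1.1 stands in the submitters' processing notes. The deposited value table held the same intensity at all 44397 spots of each array (equal, with no tolerance). Depth has no meaning for arrays, and their number limits the precision.

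For each spot, log2 processed intensity was taken relative to the array's 75th percentile over 43020 gene spots. Spots marked as outliers on either array were left out on both (114 and 109 marked), and spots of a probe and probes of a gene were averaged. Genes needed a probe well above background and unsaturated on both arrays. Accessions were named through a RefSeq table of GRCm38.p6: 26410 of 39426 probes matched and 13016 did not. The array's design was built on another assembly, so no probe coordinates are given, and those of the promoter windows are RefSeq's.

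All members, and by rule Sirt1, 9 pathway genes, the 3 furthest genes of each pathway list and the first 3 markers of each cell type, are named, except 2 genes that are not reported here. Members and lists were chosen with earlier results of these data known. No test was possible with 1 array per group. Steps were tested on simulated data. Alternatives were normexp (offset 50, on spot medians), quantile normalization, median centring, the value table, loess (span 0.3), a 75th percentile over detected probes only, outlier spots kept, no filter on dim probes, the brightest probe, and a 2-fold threshold. Software was R 4.3.3 with limma 3.58.1 and Python 3.11.15 with pandas 2.3.3, numpy 2.4.6, matplotlib 3.10.9 and statsmodels 0.14.6.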

Additional observations from a re-analysis of the deposited data

How the results depend on the processing

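Every member gene kept its direction under the alternatives run, and none moved by as much as its scanner error. Hsd11b1 ran from 1.00 to 1.08, Fkbp5 from 0.55 to 0.62, Klf9 from 0.28 to 0.35, Hsd11b2 from -0.48 to -0.42, Zbtb16 from -0.50 to -0.44 and Nr3c2, the dimmest, from -0.23 to -0.07. The count of member probes at least 1.5-fold higher was 1 in place of 2 under normexp, quantile normalization, loess, the percentile over detected probes and the 2-fold threshold, since Fkbp5 lies at the threshold. The median of the clock list was 0.11, but 0.00 under normexp (-0.0019) and 0.21 with dim probes kept. That of the immediate early list was -0.08, but -0.18 under normexp and -0.13 with dim probes kept. The cause was not tested. Among cell type lists the fibroblast and fat cell medians were 0.18 and 0.43 under normexp, and those of proximal tubule, podocyte and adrenal cortex crossed 0, the last from -0.01 to between -0.13 and 0.01. No paired analysis was possible because each group had 1 array. These data give the scanner error and, for Hsd11b1, the spread between spots, but not the spread between animals.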
